A study of Rattus norvegicus with 2 samples.

Results

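Genes of 4 small groups tied to mRNA decay, stress and the control of cell division were followed in rat cervical lymph nodes after acute restraint. They are the tristetraprolin (TTP) family Zfp36, Zfp36l1 and Zfp36l2, the BTG genes Btg1 and Btg2, the GADD45 genes Gadd45a, Gadd45b and Gadd45g, and the p53 target genes Cdkn1a and Mdm2. The members were taken by name: every probe other than a control whose gene name in the scanner files was one of these 10 entered, which gave 15 probes of 10 genes among the 36174 gene names on the array. Of the 10 genes, 10 were well above background on both arrays by the probe that represents them, so no member was lost to a filter on dim signals.

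RNA of cervical lymph nodes from male Sprague-Dawley rats aged 10 to 12 weeks was hybridized in 1 color (Cy3) to 2 arrays, 1 of the control (C) group without stress and 1 of the restraint stress (RS) group. The labels give no restraint time. The array comparison of the paper is that of its RS30 group, named for the minutes during which the rats were tied to a board on their backs. Per the methods, rats were anesthetized with halothane and killed with pentobarbital before the nodes were taken. Whether an array carried RNA of a single rat or of a pool is not given in the sources used here. With 1 array per group there was no replicate and no test was run, and a difference compares these 2 RNA samples. The errors given cover the measurement of spots only, as the scanner software estimates it. They shrink with the number of spots of a probe, which are taken as independent. From these errors, 95% intervals are built on the log2 scale. Precision is limited throughout by having so few arrays.

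Proteins of the TTP family carry a pair of CCCH zinc fingers that bind AU-rich elements near the 3′ end of short-lived mRNAs, many of them encoding cytokines and chemokines, and recruit the CCR4-NOT complex, which removes the poly(A) tail. BTG proteins bind the deadenylase subunits of the same complex and restrain proliferation, and Btg1 and Btg2 are known for keeping lymphocytes quiescent. GADD45 proteins are small stress-inducible partners of the kinase MAP3K4, of PCNA and of CDK1. Cdkn1a encodes p21, an inhibitor of cyclin-dependent kinases, and Mdm2 encodes the ubiquitin ligase that degrades p53; both are transcribed under p53, although p21 also responds to other signals.

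The probes are the measurement, so a few are shown before the values. Agilent probes are 60 bases long, are written here in the sense of the mRNA, and lie mostly toward its 3′ end. Genome positions of probes are those of the scanner files, and rn4 is the rat build in the header; whether a probe lies in an exon or a UTR is not given there. The single Zfp36 probe (chr1:83486788-83486847, minus strand) ran through an AU-rich stretch, the kind of element that TTP itself binds, and the part with the nonamer TTATTTATT in capitals (chr1:83486815-83486844) is shown.
Zfp36: tatgacgactTTATTTATTgtaataagatt
This probe held 3 copies of ATTTA, a pentamer present in 3550 (7.79%) of the 45598 probes, and the nonamer was present in 71 (0.156%). Only 20% of its bases were G or C, compared with a median of 43.3% over all probes. Of the 15 member probes, the other one with ATTTA was the dimmer probe of Cdkn1a, with 1 copy.

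Zfp36l1 and Zfp36l2 each had a probe that ended in a stop codon after an open frame, as 6.65% of all probes do. Whether they lie in coding sequence was not tested. They are shown because near-identical copies could share signal, with the bases that differ in capitals. That of Zfp36l1 lies at chr6:103121166-103121225 and that of Zfp36l2 at chr6:7532813-7532872, both on the minus strand.
Zfp36l1: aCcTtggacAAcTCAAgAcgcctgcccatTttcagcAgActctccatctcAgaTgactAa
Zfp36l2: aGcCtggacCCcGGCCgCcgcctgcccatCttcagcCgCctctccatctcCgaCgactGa
The pair shared 45 of 60 bases (75%), with 15 differences and no identical run longer than 11 bases.

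Of the 10 genes, 4 were at least 2-fold higher on the RS array (Gadd45g, Zfp36l2, Zfp36 and Cdkn1a) and 0 were at least 2-fold lower. Over all 21096 genes screened, meaning well above background on at least 1 array, 3.46% were at least 2-fold higher and 4.28% at least 2-fold lower, beside 40% and 0% of the members, which were chosen with these results known. The median log2 difference of the 10 genes was 0.51, beside 0.016 over all screened genes, and the values of the 10 genes ran from 0.023 to 2.17. All 10 were above 0, as were 52.1% of all screened genes; the values nearest 0, those of Mdm2 and Zfp36l1, fell below 0 without normalization between the arrays, and that of Mdm2 also when the 75th percentile was taken over spots (-0.030). Log2 differences here are RS minus C, after the 75th percentile of each array was subtracted from its log2 signals.

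**Figure D1:**
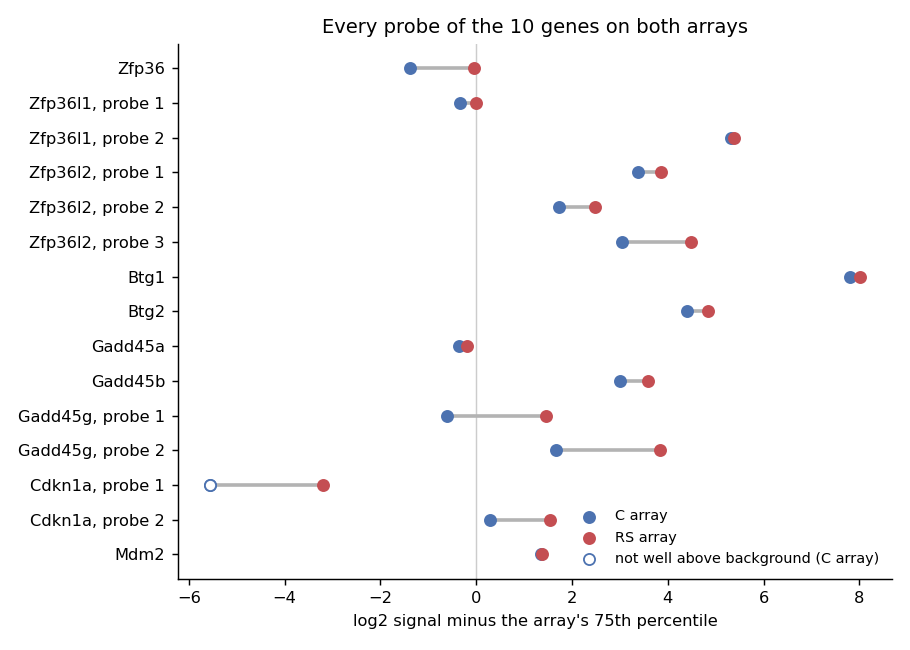
Signal of each of the 15 probes on the C array (blue) and the RS array (red), as log2 intensity minus the 75th percentile of its array; the open circle is a C signal not well above background. The widest gaps are those of both Gadd45g probes and of the dim Cdkn1a probe, and the points of Mdm2 and of Zfp36l1 probe 2 nearly coincide. Levels of different probes cannot be compared with each other.

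Within the TTP family, Zfp36 and Zfp36l2 were past 2-fold and Zfp36l1 was not. Zfp36, which encodes TTP, the founding member, read 72.6 on C and 170 on RS in units of intensity, each from 1 spot. After normalization it was 2.51-fold higher (log2 difference 1.33, spot error 0.21). It ranked 436 of 21086 genes by difference. Its 95% interval, from 0.92 to 1.74, reached just below 2-fold. With normexp background correction, which lifts all signals by an offset, the difference was 0.84 and no longer past 2-fold.

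Zfp36l2 was read by 3 probes, which pointed the same way by unequal amounts. The probe nearest the 3′ end, at position 3463 of the transcript (chr6:7530972-7531031), was printed in 10 spots and represents the gene because its mean signal over both arrays was highest. On the C array alone the probe at position 1622 was brighter, so the choice of probe depends in part on the RS signal. Its spots ran from 1485 to 1733 on the C array (10 spots, median 1549) and from 3714 to 4345 on the RS array (9 spots used, median 3892). The spots of the arrays did not overlap, and the probe was 2.69-fold higher (log2 difference 1.43, spot error 0.066). The probe at position 2234 went from 623 to 988, which was 1.70-fold higher (0.76, spot error 0.20). The probe at position 1622, the one shown above, went from 1973 to 2540, or 1.38-fold (0.46, spot error 0.20). The 95% intervals of the probes at 1622 (0.06 to 0.86) and 2234 (0.36 to 1.16) overlapped, and 2-fold was passed by the 3′ probe alone. The range between these probes, 0.96 log2 units, was wide for this array: over the 3610 genes with at least 2 probes above background on both arrays, the median range was 0.18 and the 90th percentile 0.63, and 4.71% of genes had a range as wide or wider. With the mean over its probes, Zfp36l2 had a log2 difference of 0.88, under 2-fold.

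Zfp36l1 was bright and nearly level. The spots of its brighter probe, at position 2610, ran from 7050 to 7943 on the C array (10 spots, median 7469) and from 7007 to 7900 on the RS array (10 spots, median 7321). These overlapped almost entirely, and the probe was 1.05-fold higher (log2 difference 0.071, spot error 0.065). The other probe of Zfp36l1, the one that resembles Zfp36l2, went from 148 to 177, a log2 difference of 0.35 (1.28-fold, spot error 0.21). Both 95% intervals included 0 and lay below 2-fold.

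**Figure D2:**
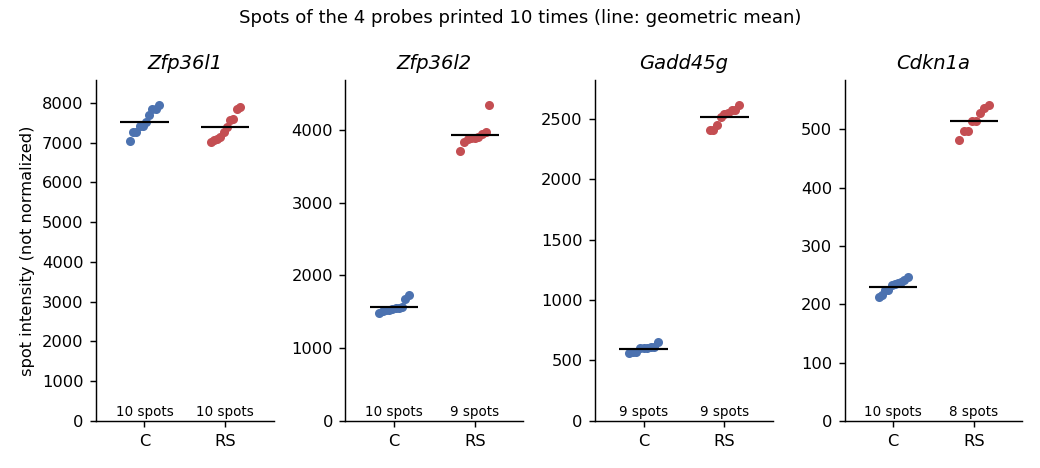
Intensity of every spot used of the 4 probes printed in 10 spots, on the C array (blue) and the RS array (red), before normalization; lines are geometric means and each panel has its own axis from 0. Spots of Zfp36l1 overlap between the arrays, whereas those of Zfp36l2, Gadd45g and Cdkn1a do not. Spots of 1 array repeat the measurement and not the animal. How often the spots of other probes printed in 10 spots separate was not counted.

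Both BTG genes were under 2-fold. Btg1, which has 1 probe (chr7:34031368-34031427, plus strand) printed in 1 spot, read 42293 on C and 45513 on RS. Its spot was not marked as saturated, and it was 1.15-fold higher (log2 difference 0.20, spot error 0.20). Btg2, an early-response gene and a target of p53, was printed in 2 spots. They read 3924 and 4009 on the C array and 4857 and 5173 on the RS array. Btg2 was 1.35-fold higher (log2 difference 0.44, spot error 0.14), and its 95% interval ran from 0.15 to 0.72. Both genes kept a positive difference in each of the 13 alternative ways of processing. Those that change the filter, the lower bound or the choice of probes cannot move them. Each gene is read by 1 probe that was well above background on both arrays.

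The GADD45 family split into 1 gene with a large difference and 2 genes with smaller ones. Gadd45g, the gamma member, had the largest difference of the 10 genes, and both of its probes gave it. The brighter probe (chr17:19230893-19230949, minus strand) ran from 566 to 651 on the C array (9 spots used, median 601) and from 2404 to 2615 on the RS array (9 spots used, median 2544). No spot of the C array came near the RS spots, and the probe was 4.50-fold higher (log2 difference 2.17, spot error 0.068). Gadd45g ranked 144 of 21086 genes by difference. The other probe lies upstream, at position 474 of the transcript (chr17:19231421-19231480, minus strand), and is shown since it repeats the result with an independent sequence.
Gadd45g: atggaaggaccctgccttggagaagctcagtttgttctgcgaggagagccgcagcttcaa
Its single spot went from 124 to 484, or 4.17-fold (log2 difference 2.06, spot error 0.21). The probes differed by 0.11 log2 units, which was within the spot error of the single-spot probe.

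Gadd45b, the beta member and a known early-response gene, was printed in 2 spots, which read 1504 and 1538 on the C array and 2068 and 2175 on the RS array. Gadd45b was 1.49-fold higher (log2 difference 0.58, spot error 0.14), under the threshold. Gadd45a, the alpha member and the classical p53 target of the family, went from 146 to 154 on 1 spot each. Its log2 difference of 0.18 (1.13-fold) was smaller than its spot error of 0.21.

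Of the p53 target genes, Cdkn1a was past 2-fold and Mdm2 was not. For Cdkn1a, the probe at position 1689 (chr20:7386596-7386655, plus strand) ran from 213 to 247 on the C array (10 spots, median 234) and from 482 to 542 on the RS array (8 spots used, median 515). The spots were separate, and the gene was 2.39-fold higher (log2 difference 1.26, spot error 0.069). The second probe, at position 611 of the transcript, was not well above background on C (4.02) but was on RS (19.2). It was at least 2.17-fold higher, set against 9.45, the dimmest C intensity of any probe marked well above background, rather than against its own. This bound rests on 1 dim spot per array with a spot error of 0.86 log2 units, and is weak by itself. Mdm2 read 478 and 487 in its 2 spots on the C array and 451 and 465 on the RS array, which after normalization was a log2 difference of 0.023 (1.02-fold, spot error 0.14). Its 95% interval, from -0.26 to 0.31, lay below the 2-fold that Cdkn1a passed.

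**Figure D3:**
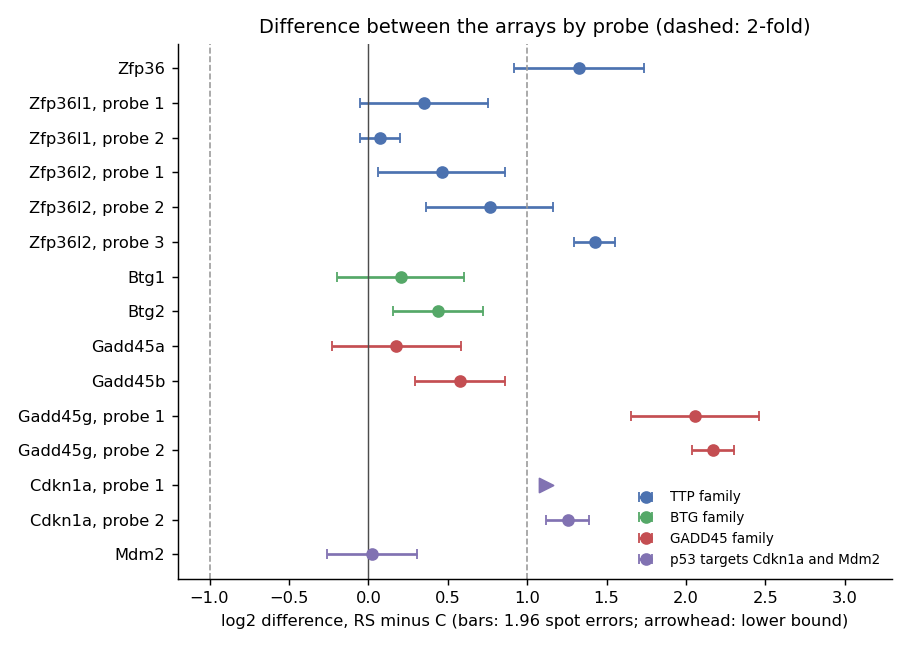
Log2 difference, RS minus C, of each of the 15 probes, colored by family; bars are 95% intervals from the spot error, dashed lines mark 2-fold and the arrowhead is a lower bound. The probes of Gadd45g sit at 2.06 and 2.17 and those of Zfp36l2 spread from 0.46 to 1.43. Btg1, Gadd45a, Mdm2 and both Zfp36l1 probes have bars that cross 0.

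**Figure D4:**
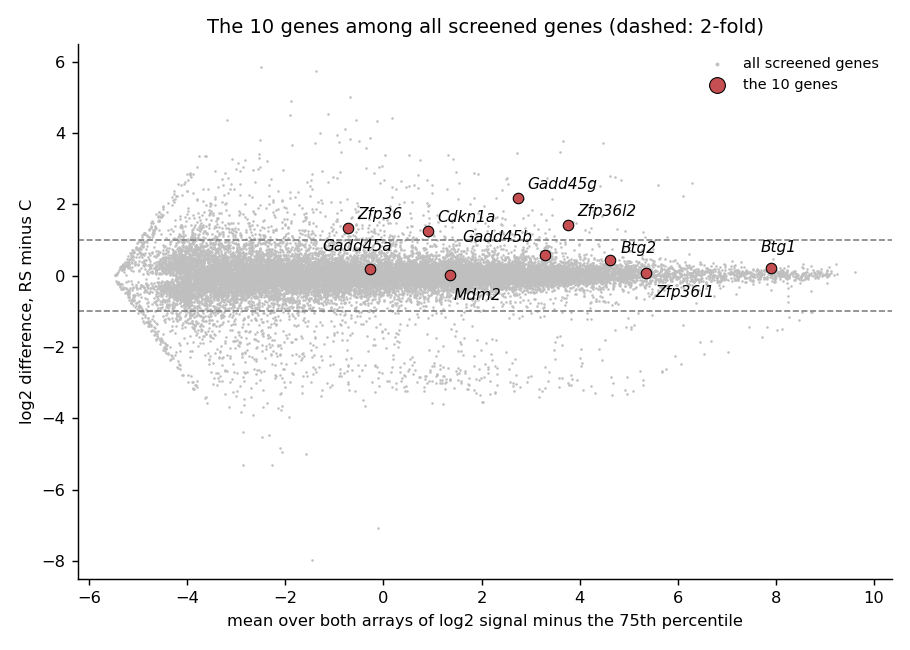
The 10 genes (red) among all screened genes (gray), with the mean of the normalized log2 signal over both arrays on the horizontal axis and the log2 difference, RS minus C, on the vertical axis; dashed lines mark 2-fold. Gadd45g, Zfp36l2, Zfp36 and Cdkn1a lie above the upper line and the other 6 genes inside the band. Each gene is drawn at its brightest probe, and the mean over the probes of Zfp36l2 was 0.88.

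The SD between the spots of 1 array was 0.064 (C) and 0.045 (RS) log2 units for Gadd45g, 0.070 and 0.061 for Zfp36l2, and 0.069 and 0.059 for Cdkn1a. The differences of these genes were many times that scatter, which says nothing of the spread between rats. Over genes above background on both arrays, differences had an SD of 0.57 log2 units. A difference beyond spot scatter therefore does not by itself set a gene apart.

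No screened gene of the machinery through which TTP and BTG proteins act was past 2-fold. Over all screened genes, 3.46% were at least 2-fold higher and 4.28% at least 2-fold lower. At these shares, a short list would hold few such genes, so counts of 0 or 1, here and below, do not set a list apart. Of 28 genes of deadenylation and decapping (the CCR4-NOT and PAN2-PAN3 deadenylases, the decapping enzyme and its cofactors, XRN nucleases and associated factors), 27 were screened, 0 were past 2-fold in either direction, and the median log2 difference was 0.12, from -0.29 to 0.48, with 20 above 0 and 7 below. The largest were Dcp1a, a decapping cofactor, at 0.48 from intensities of 13.4 and 17.5 (0.034 with the mean over its probes), and Ago2, the slicer of the RNA-induced silencing complex, at 0.43. Of the 12 subunits and cofactors of the RNA exosome that were screened, 0 were past 2-fold, with a median of -0.037. Exosc4 (-0.31) and Exosc5 (-0.25), subunits of its ring, lay lowest.

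Among 16 other screened regulators that bind AU-rich or stem-loop elements or act with them, 0 were past 2-fold. Over all screened genes, 3.46% were at least 2-fold higher and 4.28% lower. The median of the list was 0.14, with 15 above 0 and 1 below. The largest was that of Zc3h12a, which encodes the endonuclease Regnase-1: it read 98.4 on C and 175 on RS, and was 1.91-fold higher (log2 difference 0.93, spot error 0.21). Its relative Zc3h12c followed at 0.74, but its probes did not all point the same way and their mean was 0.12. Of the other BTG/TOB genes, Tob1 went from 44.6 to 67.4 (log2 difference 0.70) and Tob2 from 1285 to 1647 (0.46), and 0 of the 3 screened were past 2-fold. With the mean over its probes, Tob2 was at 0.15, and with normexp Tob1 was at 0.27.

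Some mRNAs reported as targets of TTP were past 2-fold on the RS array and others were not. Of 20 listed, 18 were screened, 9 were at least 2-fold higher (3.46% of all screened genes were) and 0 at least 2-fold lower, and the median log2 difference was 1.07. This median was below 2-fold with normexp (0.65), with the mean over probes (0.90) and without normalization (0.97). The 9 genes under 2-fold included Tnf (log2 difference 0.071), Ccl3 (0.22), Ccl4 (0.0078) and Il23a (-0.49). Of the 18 screened, 16 were above 0 and 2 below. The chemokine gene Ccl2 went from 1160 to 14380 (13.3-fold); its probe holds alternating A and G bases, and it has no value where such probes are left out. Ptgs2, which encodes the inducible cyclooxygenase, went from 14.6 to 173 (12.7-fold). Il6 went from 9.99 to 98.6 (10.6-fold) and Il10 from 25.3 to 109 (4.60-fold), both cytokines. With normexp the log2 differences of Ptgs2 (1.72), Il6 (1.34), Il10 (1.05), Cxcl1 (3.12) and Cxcl2 (2.33) were smaller but past 2-fold, and Il10 was at 1.31 with the mean over its probes. Levels were measured at 1 time, and mRNA decay was not measured. The chemokine genes Cxcl1 (log2 difference 5.03) and Cxcl2 (3.76), which are the subject of the study, are on this list, so it is not independent of what was already known of these arrays. Ier3 (1.15), the kinase gene Pim1 (1.24), and Plau, at least 4.38-fold higher from a C signal not above background, made up the remainder past 2-fold; with normexp, Ier3 (0.97), Pim1 (0.48) and Plau (0.66) fell below it, as did Plau with the mean over its probes (0.79).

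Around GADD45, 1 of 12 screened partners and kinases of the p38 and JNK cascades was at the threshold (3.46% of all screened genes were higher). Map2k3, a kinase that activates p38, went from 615 to 1148, which was on the 2-fold line (spot error 0.14), and was below 2-fold in 7 of 13 alternatives. Map3k4, the kinase that GADD45 proteins bind, was at -0.42, from 69.3 to 48.3, and at -0.17 with normexp. The list had a median of 0.056, and of -0.043 without normalization.

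Other p53 target genes were set beside Cdkn1a. Of 28 listed, 25 were screened, 0 were at least 2-fold higher (3.46% of all screened genes were) and 1 was at least 2-fold lower (4.28%). The median was 0.038, with 13 above 0 against 12 below. The lower gene was Rprm, which encodes the cell cycle inhibitor reprimo: it went from 22.8 to an RS signal of 5.08 that was not well above background, and was at least 2.49-fold lower; with normexp it was at -0.22. Plk3, a stress-responsive kinase, had the largest positive difference at 0.92, from 36.7 to 64.8, and was at 0.44 with normexp. Without normalization the median of the list was -0.061. Among the 7 other CDK inhibitors, 0 were past 2-fold and the median was 0.0063; Cdkn2b was at 0.88 on its brighter probe but at -0.43 with the mean over its probes, and Cdkn2a was at -0.65, or -0.17 with normexp. The median of these inhibitors changed sign in 7 of the 13 alternatives.

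**Figure D5:**
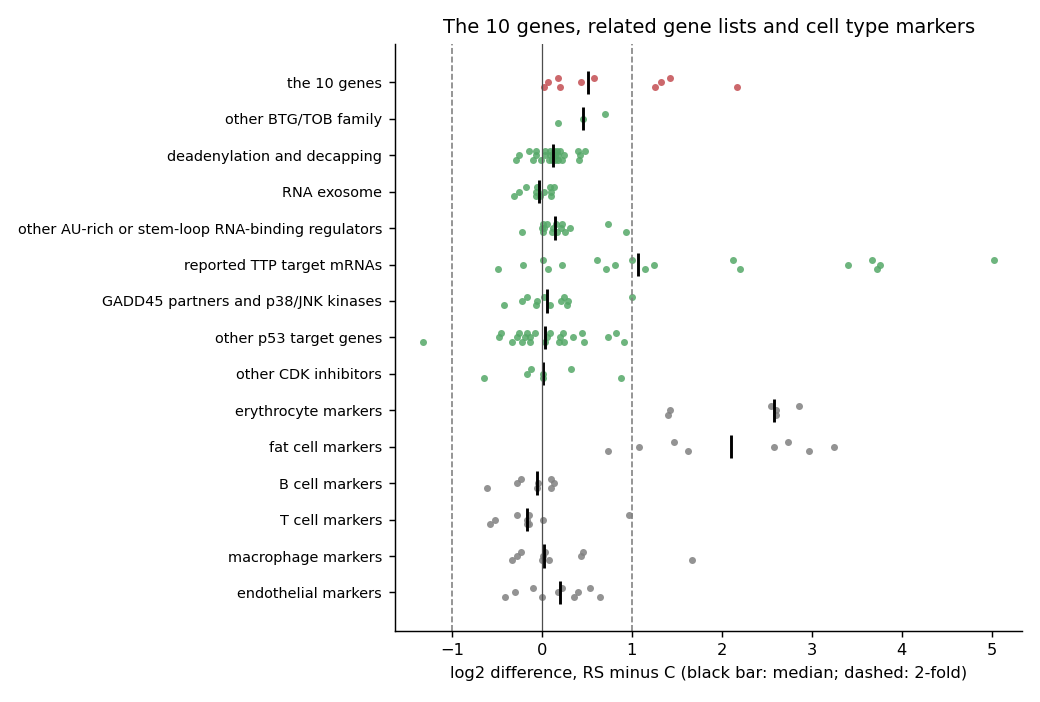
Log2 difference, RS minus C, of each screened gene of the 10 (red), of the related gene lists (green) and of the cell type marker lists (gray), with the median of each as a black bar and dashed lines at 2-fold. The medians of deadenylation and decapping (0.12) and of other p53 targets (0.038) lie near 0, whereas the reported TTP targets (median 1.07), erythrocyte markers (2.58) and fat cell markers (2.11) lie to the right.

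The RNA came from whole nodes, in which fewer cells of a type and less RNA per cell cannot be told apart, so the markers of the cells that a node can hold are given beside these results. Lymphocyte genes were present: 8 of 8 B cell and 9 of 9 T cell markers on the array were well above background on both arrays. Their medians were -0.051 and -0.16. Such markers do not tell a cervical node from other lymphoid tissue. Erythrocyte markers were higher, with 6 of the 6 screened (9 listed) past 2-fold with a median of 2.58, and their intensities summed to 9985 on C and 55867 on RS. Of the 8 fat cell markers screened (10 listed), 7 were at least 2-fold higher, with a median of 2.11, and they summed to 9617 and 22580. Macrophage and endothelial markers had medians of 0.024 and 0.21, with 1 of 10 (Cd14, log2 difference 1.67) and 0 of 10 past 2-fold. Hba1, an alpha globin gene, read 5953 on C and 33805 on RS, and Adipoq, the adiponectin gene, read 420 and 2615. The part of more blood cells or fat cells in the differences of Gadd45g, Zfp36, Zfp36l2 and Cdkn1a was not tested.

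Short motifs were searched just upstream of the members' starts. In the 250 bases before the RefSeq gene start (build GRCr8), the cAMP response element TGACGTCA was present in 1 of 10 members, Btg2, and in 1.59% of 33469 promoters. The AP-1 element TGACTCA was present in 0 of 10 and in 4.05% of promoters. The CArG box bound by serum response factor was present in Zfp36 alone (501 of the promoters), where it starts 32 bases before the gene start and overlaps a GC box by 1 base. TATAAA was present in Zfp36l1 and Gadd45g (12.9%), and the GC box GGGCGG in 7 of 10 (30.5%). These shares are over all promoters searched and not only those of genes well above background on the arrays. Both strands were searched, and a match is a match of letters and not a bound site. The upstream sequences of Gadd45g, Zfp36l2, Zfp36 and Cdkn1a, which were past 2-fold, and of Btg2 for its cAMP response element, are shown with all matches in capitals.
Gadd45g, chr17:13530352-13530601, minus strand: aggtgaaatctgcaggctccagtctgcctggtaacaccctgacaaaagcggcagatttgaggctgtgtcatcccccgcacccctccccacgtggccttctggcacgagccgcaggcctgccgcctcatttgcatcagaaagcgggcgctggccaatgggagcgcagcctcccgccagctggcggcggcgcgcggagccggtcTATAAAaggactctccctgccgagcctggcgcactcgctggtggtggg
Zfp36l2, chr6:16242372-16242621, plus strand: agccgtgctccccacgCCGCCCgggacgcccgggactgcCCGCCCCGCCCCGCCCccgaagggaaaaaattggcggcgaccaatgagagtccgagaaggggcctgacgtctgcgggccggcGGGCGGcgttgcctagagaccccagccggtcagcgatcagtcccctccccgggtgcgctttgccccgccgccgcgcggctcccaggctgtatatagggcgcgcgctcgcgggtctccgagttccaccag
Zfp36, chr1:92799109-92799358, minus strand: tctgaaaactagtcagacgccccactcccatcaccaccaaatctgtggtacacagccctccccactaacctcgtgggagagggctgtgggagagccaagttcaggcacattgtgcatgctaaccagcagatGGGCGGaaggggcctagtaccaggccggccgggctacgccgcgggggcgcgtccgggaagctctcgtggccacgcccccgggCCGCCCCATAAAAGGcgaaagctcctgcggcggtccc
Cdkn1a, chr20:7150682-7150931, plus strand: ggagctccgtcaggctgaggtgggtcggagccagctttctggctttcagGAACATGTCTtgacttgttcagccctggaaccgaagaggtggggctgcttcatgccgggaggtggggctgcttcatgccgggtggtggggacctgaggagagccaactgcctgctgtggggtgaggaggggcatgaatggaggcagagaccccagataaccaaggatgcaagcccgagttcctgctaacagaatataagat
Btg2, chr13:48087691-48087940, minus strand: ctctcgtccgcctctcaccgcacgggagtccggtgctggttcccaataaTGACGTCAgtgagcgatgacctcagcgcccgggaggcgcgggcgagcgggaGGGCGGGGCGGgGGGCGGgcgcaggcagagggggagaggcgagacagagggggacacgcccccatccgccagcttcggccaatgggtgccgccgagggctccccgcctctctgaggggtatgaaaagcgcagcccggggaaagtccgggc
The capitals in Cdkn1a, which start 201 bases before the gene start, are a match to the p53 half-site, a motif added to the search after the sequence had been seen. It was present in 2 of 10 members, the other being Gadd45a, and in 6.64% of promoters. Of the genes with a cAMP response element, a CArG box or a p53 half-site in this window, Zfp36 and Cdkn1a were past 2-fold, and Btg2 and Gadd45a were not.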

How the data were processed

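Total RNA of cervical lymph nodes was labeled and hybridized by the authors to Agilent SurePrint G3 Rat GE 8x60K v2 arrays. Per the file headers, the deposited spot intensity values came from Agilent Feature Extraction 11.5.1.1 (also named in the submitters' processing notes), background-subtracted and detrended by array but not scaled to each other. A table of log2 values deposited by the authors lay within 0.1 of the values computed here for 100% of 45598 probes and was used as an alternative.

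Control spots and spots flagged as feature outliers (489 on the C array, 660 on the RS array) were left out. Log2 intensities were averaged per probe and the 75th percentile over probes, an intensity of 189 (C) and 176 (RS), was subtracted, which follows the methods of the study, as does the 2-fold threshold. A gene was read from its brightest probe. The paper does not state how it filtered genes or chose probes, and its counts past 2-fold and its Cxcl1 fold differ from those here. A probe was well above background when over 50% of its spots were so marked, which held for 54.7% and 54.9% of probes. Where this held on 1 array only, the fold is a lower bound. The spot error combines the software's errors of both arrays. For a probe with several spots it is the error of their mean, with the spots taken as independent. An error shared by all spots of an array is not covered. The arrays shared 1 slide and 1 scan. The steps were tested on simulated arrays drawn from the C array with spot noise and known shifts in brighter genes. That test does not cover dim genes, values near 2-fold or differences between rats.

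The 10 genes and all lists were chosen with earlier results of these data known. 1 related gene list is not reported here. Named from each pathway list were genes past 2-fold or, with fewer than 2, the 2 largest. Of 15 member probes, 14 matched the RefSeq gene table (GRCr8) by accession under the same symbol. The 13 alternatives covered scaling, background correction, probe choice and filters. R 4.3.3, limma 3.58.1, Python 3.11.15, numpy 2.4.6, pandas 2.3.3 and matplotlib 3.10.9 were used.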

Additional observations from a re-analysis of the deposited data

How the results depend on the processing

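No paired analysis was possible because there is a single array of C and of RS. Of 130 values of the 10 genes under the 13 alternatives, 119 moved by less than the spot error. Part of these agreements was fixed in advance. All 10 genes were above background on both arrays, and no member probe holds alternating A and G bases. Changing the background filter, dropping the lower bound or leaving out such probes therefore cannot change a member value or the count past 2-fold. The number of members at least 2-fold higher was 4 in 11 alternatives and 3 with normexp, where Zfp36 was at 0.84, and when all probes of a gene were averaged, where Zfp36l2 was at 0.88; it was 0 for lower members in all 13. Mdm2 and Zfp36l1 fell below 0 without normalization (-0.076 and -0.028), and Mdm2 also with the percentile taken over spots (-0.030). The median of the members lay between 0.41 and 0.53. Over all genes, the count at least 2-fold higher was 234 with normexp and 2031 without a background filter, beside 730, and the count at least 2-fold lower was 378 with normexp, 2148 without a filter, 601 for genes above background on both arrays and 498 without probes that hold alternating A and G bases, beside 903. Of the genes past 2-fold, 44.7% were higher, and 59.0% without these probes, none of which reads a member. Fewer or more genes qualify by construction where the filter changes. The offset added with normexp, 50 units of intensity, shrinks log2 differences of dim signals by construction. Otherwise the cause was not tested.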
